A study of Mus musculus with 2 samples.

Results

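The regions described here were 578 KMT2D peaks that lay between genes, with their summits more than 20 kb and at most 100 kb from the nearest protein-coding gene. They made up 15.6% (Wilson 95% interval 14.5 to 16.8) of the 3706 peaks that the authors' list placed on chromosomes 1 to 19, X and Y; the whole list held 3738. A member had its summit outside every protein-coding gene of RefSeq GRCm38.p6, the same build as mm10, and no measured level entered the choice. The data came from 1 ChIP library, precipitated with the Millipore ABE1867 antibody against KMT2D, and 1 input library without antibody. Both were from a wild-type clone of HT22, an immortalised mouse hippocampal line, sampled at 70% confluency. HT22 cells with the SET methyltransferase domain of KMT2D deleted by CRISPR-Cas9 belong to the study's design and were not analysed here. Since neither library was replicated, no test was made, and the intervals cover counting error or the sampling of peaks only. A peak list holds no expression, so the labelled cell type could not be checked against its markers.

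KMT2D, also called MLL4, places methyl groups on lysine 4 of histone H3 and works in a large complex with UTX, PTIP, NCOA6 and shared WRAD subunits. In other mouse and human cells it is best known for monomethylation of this lysine at enhancers, the regulatory elements that can lie far from the gene they act on, and it is brought there by sequence-specific factors such as C/EBP and nuclear receptors. In people, loss of one copy of its gene causes Kabuki syndrome, which includes intellectual disability. A peak far from a gene is not by itself an enhancer, and the nearest gene need not be the gene it acts on.

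The list gives positions and no bases, so sequence could be shown only where RefSeq prints a promoter. RefSeq promoter windows span 300 bases, 250 before a gene's start and 50 from it on, and 18 of the 32851 windows held the summit of 16 of the 578 peaks. All 18 belonged to long non-coding RNA (lncRNA) genes, since the rule keeps protein-coding genes away. The windows of the 5 highest folds are printed 5′ to 3′ on the gene's own strand, together with 1 of the 2 windows, Gm14321 and Gm32287, under a peak in the Cebpb neighbourhood, chosen after its values were seen. Fold is the authors' value from their peak caller: the ChIP signal at the summit divided by a background taken from the input. Capitals mark the letters of the motifs searched. Gm36495 is on the minus strand at chr12:16850886-16851185, with its peak (fold 10.05) 29 bp before its start and E2f6, a repressor of the E2F family, as the nearest protein-coding gene. Gm40491 is on the minus strand at chr12:86833714-86834013 (fold 8.23, near Irf2bpl), and Gm5546 on the minus strand at chr3:104360269-104360568 (fold 7.03, near Lrig2). Gm19705 is on the plus strand at chr1:136683146-136683445 (fold 6.36, near Zfp281), and Gm31125 on the minus strand at chr4:106840112-106840411 (fold 6.14, near Acot11). Gm14321 is on the plus strand at chr2:167777241-167777540 (fold 5.68, near Cebpb).
Gm36495: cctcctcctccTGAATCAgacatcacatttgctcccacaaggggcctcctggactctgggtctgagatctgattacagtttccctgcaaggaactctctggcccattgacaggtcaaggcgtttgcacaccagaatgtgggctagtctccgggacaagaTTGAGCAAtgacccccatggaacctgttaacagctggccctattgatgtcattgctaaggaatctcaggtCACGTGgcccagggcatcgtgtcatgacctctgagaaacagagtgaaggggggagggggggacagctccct
Gm40491: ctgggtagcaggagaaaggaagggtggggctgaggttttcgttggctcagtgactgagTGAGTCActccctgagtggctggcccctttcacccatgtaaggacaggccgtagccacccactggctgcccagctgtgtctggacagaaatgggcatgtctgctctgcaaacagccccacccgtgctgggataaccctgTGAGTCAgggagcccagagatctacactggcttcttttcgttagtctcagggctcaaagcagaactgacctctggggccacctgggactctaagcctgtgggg
Gm5546: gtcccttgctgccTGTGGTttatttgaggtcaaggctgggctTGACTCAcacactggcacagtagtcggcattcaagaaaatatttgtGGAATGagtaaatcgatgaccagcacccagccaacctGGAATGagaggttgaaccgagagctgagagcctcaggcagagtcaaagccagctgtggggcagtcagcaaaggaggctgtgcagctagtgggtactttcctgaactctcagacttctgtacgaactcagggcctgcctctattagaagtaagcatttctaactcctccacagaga
Gm19705: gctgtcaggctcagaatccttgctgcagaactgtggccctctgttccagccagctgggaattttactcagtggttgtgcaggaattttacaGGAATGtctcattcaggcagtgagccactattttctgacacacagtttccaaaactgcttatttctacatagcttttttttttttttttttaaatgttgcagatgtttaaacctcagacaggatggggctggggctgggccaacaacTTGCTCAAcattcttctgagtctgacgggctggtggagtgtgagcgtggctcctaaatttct
Gm31125: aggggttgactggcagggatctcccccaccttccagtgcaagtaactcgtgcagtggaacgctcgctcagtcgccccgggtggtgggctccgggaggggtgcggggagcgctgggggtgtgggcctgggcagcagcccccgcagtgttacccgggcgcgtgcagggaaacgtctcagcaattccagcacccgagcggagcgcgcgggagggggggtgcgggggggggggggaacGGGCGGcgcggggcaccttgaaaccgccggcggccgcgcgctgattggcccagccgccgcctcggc
Gm14321: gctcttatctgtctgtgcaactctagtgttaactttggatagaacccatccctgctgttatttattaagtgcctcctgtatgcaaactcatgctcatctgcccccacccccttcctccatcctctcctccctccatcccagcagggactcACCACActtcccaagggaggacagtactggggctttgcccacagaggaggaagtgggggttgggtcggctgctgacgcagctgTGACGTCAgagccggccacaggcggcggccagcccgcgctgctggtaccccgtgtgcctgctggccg

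These windows differed in base composition. Gm31125 stood apart with 74.0% G and C and 32 CG pairs, and its only motif was a GC box, GGGCGG, the site of SP factors. The other 4 of the 5 highest had 45.3% to 58.3% G and C and 2 to 4 CG pairs. Gm40491 held the AP-1 letters TGANTCA at 2 places, and Gm36495 and Gm5546 held them once each; AP-1 is the FOS and JUN dimer. Gm14321 held the cyclic AMP response element TGACGTCA in the 50 bases before its start. Over the 16 peaks, TGANTCA stood in a window of 7 (43.8%, Wilson 95% interval 23.1 to 66.8), against 33 of the 339 other peaks with a summit in a promoter window (9.74%) and 7.81% of all promoter windows. Among the 57 of those 339 peaks that lay in windows of lncRNA genes it was in 10 (17.5%). With the first window alone of each peak, it was in 6 of 16 (37.5%). The C/EBP letters TTGCNNAA stood in 6 of 16 (37.5%, 18.5 to 61.4), against 6.79% of the other peaks and 10.8% of all windows. RUNX letters (TGTGGT) were in 5 (31.3%, 14.2 to 55.6), against 13.0% and 16.8%, and TEAD letters (GGAATG) in 4 (25%, 10.2 to 49.5), against 11.2% and 14.7%. The GC box was in 2 (12.5%) and the ETS letters CCGGAA in 1 (6.25%), while the other peaks in promoter windows had them in 71.1% and 38.1% and all windows in 35.7% and 14.9%. Since every member window belongs to a lncRNA gene, lncRNA windows are the closer comparison. Over all 11588 lncRNA windows the GC box stood in 16.3% and the ETS letters in 7.94%, close to the members' shares, and at the 57 other peaks in lncRNA windows in 52.6% and 36.8%. There the other letters stood, for all lncRNA windows and those 57 peaks in turn, in 9.31% and 17.5% for AP-1, 11.95% and 5.26% for C/EBP, 20.05% and 21.1% for RUNX, and 16.7% and 8.77% for TEAD. The RUNX and TEAD values except the 8.77% lie inside the members' intervals, and the AP-1 and C/EBP values lie below them. At the 57 peaks those values rest on 10 matches for AP-1 and 3 for C/EBP. Their own intervals were not computed, so a separation from those peaks is not shown. The E-box CACGTG was in 2 (12.5%, against 14.2% and 7.15%), the cyclic AMP response element in 1 (6.25%, against 3.54% and 1.79%) and the NFI letters TTGGCA in 1 (6.25%, against 8.26% and 14.1%). Both strands were searched, no motif's letters are contained in another's, and a match is a description of 16 windows rather than a bound site.

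Peaks thinned out steadily across the interval of 20 to 100 kb, while their fold did not. Counting the 565 members between the first and the last protein-coding gene of each chromosome, there were 1.47 peaks per Mb of sequence at 20 to 40 kb from a gene, 1.23 at 40 to 60 kb, 0.981 at 60 to 80 kb and 0.819 at 80 to 100 kb. Nearer in, at 2 to 20 kb, there were 1.90 per Mb, and beyond 100 kb 0.325. Across the whole interval, members made up 15.4% of the 3666 peaks so counted and the interval made up 17.6% of the 2656 Mb of sequence, a ratio of 0.878 (interval 0.813 to 0.947). Chromosome Y, with no peak so counted, supplied 30.99 of the 466.2 Mb at this distance. The ratio without Y was not computed. The ratio was 1.07 (0.949 to 1.20) in the first 20 kb of the interval and 0.594 (0.462 to 0.762) in the last. It was closer to 1 in stricter lists, 0.977 for peaks with −log10 q of at least 5 and 0.997 for peaks at or above the median fold of the list. The sides of genes were alike: where strand was known, 244 of 447 members (54.6%, 50 to 59.1) lay upstream of the nearest gene and 53.6% of the sequence did.

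**Figure D1:**
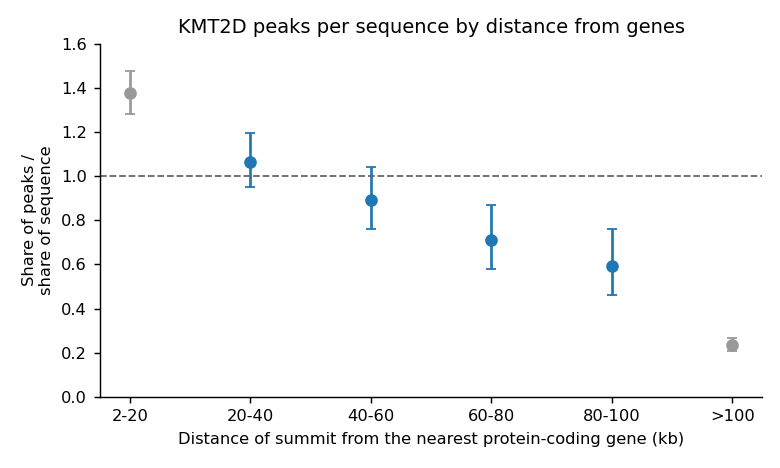
Share of peaks divided by share of sequence (vertical axis) for summits at each distance from the nearest protein-coding gene (horizontal axis, kb); blue points are the intervals within 20 to 100 kb, grey points lie outside it, bars are Wilson 95% intervals and the dashed line marks a ratio of 1. The ratio goes from 1.07 at 20 to 40 kb to 0.594 at 80 to 100 kb, between 1.38 at 2 to 20 kb and 0.236 beyond 100 kb.

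The median fold of the 578 peaks was 4.70 (exact 95% interval of the median 4.53 to 4.91), with an interquartile range of 3.76 to 6.01 and a full range of 1.505 to 18.7. Peaks 2 to 20 kb from genes had 4.85 (4.70 to 4.99), those beyond 100 kb 4.83 (4.53 to 5.21) and those inside genes 4.71, so these medians lay within each other's intervals or close to them. Peaks within 2 kb of a gene end were lower in fold, at 3.72 (3.63 to 3.79). Their median ChIP signal was 29 fragments (29 to 30) over a median background of 7.35 (6.92 to 7.35). The part of this background in their lower fold was not tested. The members' median ChIP signal was 31 fragments (30 to 33), with quartiles of 24 and 42. Their median background was 5.79 (5.62 to 6.05), with quartiles of 4.21 and 7.78. Both numbers are fixed by the deposited fold and p-value for 577 members. The median width was 300 bp (246 to 394). A fold of at least 8 was reached by 45 members, 7.79% (5.87 to 10.3), beside 7.58% of all peaks in the list, so the members' share lay at the background. Peaks 2 to 20 kb from genes reached it in 13.8% (11.3 to 16.6), an interval that does not meet that of the members. From near to far, the 4 steps of 20 kb had median folds of 4.58, 4.95, 4.67 and 4.93, and over all members fold and distance had a Spearman rho of 0.073 (n = 578 peaks of 1 library).

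**Figure D2:**
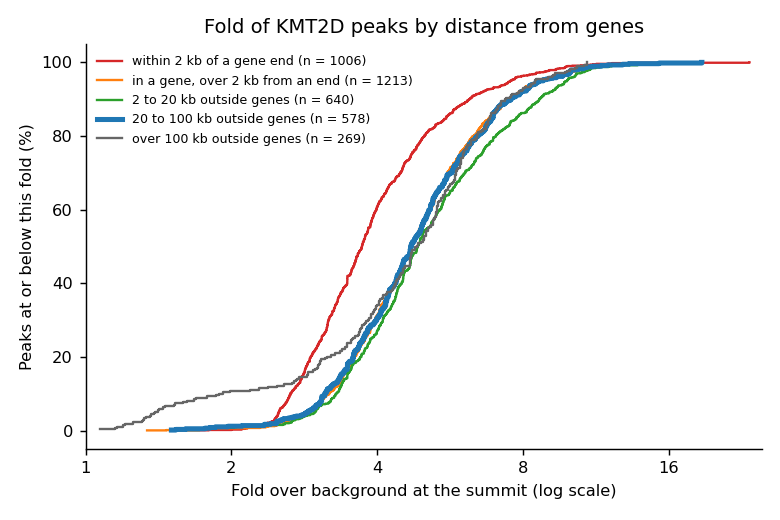
Share of peaks at or below a given fold over background (vertical axis, %; horizontal axis, fold on a log scale) for 5 classes of position; the thick blue line is the 578 peaks 20 to 100 kb from genes. Its median of 4.70 lies beside those of the gene-body, 2 to 20 kb and over 100 kb classes, and to the right of the 3.72 of gene ends.

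Just beyond 20 kb stood the first members, with summits 20032 bp from Itga3 (fold 4.67) and 20044 bp from Zfp365 (4.69). Just short of it, and so not members, were peaks 19951 bp from Sema4b (5.66) and 19946 bp from Itpr1 (4.27). At the far limit the last members lay 99975 bp from Zfp36l2 (5.34) and 99182 bp from Cebpb (3.43), and the first peaks beyond lay 100809 bp from Dyrk2 (8.27) and 100810 bp from Pcdh18 (5.21).

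The highest, at chr9:106405211-106405594, was 23516 bp from Rpl29, a ribosomal protein gene. This peak lay within a lncRNA gene and 125 bp from an end of the lncRNA gene Gm46131. It had a fold of 18.7 (exact 95% Poisson interval 15.5 to 22.5) from 115 ChIP fragments over a background of 5.19. The second, 22712 bp from Fam91a1 at chr15:58480290-58480998, had 15.3 (12.7 to 18.2; 124 fragments over 7.17), with no other peak within 221073 bp. Adgrl2, which encodes the adhesion receptor latrophilin 2, had a peak 63592 bp upstream with 13.3 (11.2 to 15.6; 146 over 10.09) at chr3:149052483-149052856. The first 2 peaks had intervals that overlapped each other, so their order was not resolved, while the interval of the third met that of the second and barely that of the first.

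Ier5, a serum-inducible immediate early gene, had a pair of peaks 20286 and 21321 bp downstream, the farther one at chr1:155074850-155075243 with 12.9 (10.1 to 16.1) and the nearer one with 7.73 (5.62 to 10.4). Hs6st1, a heparan sulfate 6-O-sulfotransferase gene, had 11.97 at 51099 bp upstream. That peak lay within a lncRNA gene and 506 bp from an end of the lncRNA gene Gm39623. Phlda1, another gene induced by growth factors, had 11.6 (9.26 to 14.4) at 35494 bp, at chr10:111543785-111544600, and its other members, 67452 and 92194 bp away, had 2.66 and 2.73. The remaining ones of the 15 highest had folds of 10.02 to 11.2 and overlapping intervals. They lay beside Hjv (at a tRNA gene), Myo16, Klf3, a Kruppel-like repressor gene whose peak was 1298 bp from the lncRNA gene Gm31889, Gpc1, which encodes the heparan sulfate proteoglycan glypican 1, E330021D16Rik, Tgfbr2, the type II receptor of TGF-β, Adrb1, the β1 adrenergic receptor, E2f6 and Cdkn2aipnl. The Adrb1 peak was 1742 bp from the lncRNA gene Gm32575.

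At the other end, 16 members had a background above 20 fragments, against the median of 5.79. The lowest fold of all, 1.505, came from 115 fragments over 76.1, in a row of 3 members near Pdia4 and Gm40363. The other Pdia4 peak had a background of 30.6, and the Gm40363 peak (fold 9.07) is the 1 member whose fragments could not be solved. A peak near Zfp825 rested on 266 fragments over 125.8 (fold 2.11) and was 1196 bp wide, next to the widest member, 1284 bp near Socs5 (fold 5.50). The third in width, 1120 bp, was the peak 51373 bp upstream of Cdkn2aipnl (fold 10.02). Over 577 members, fold and background had a Spearman rho of -0.43, and fold is computed from that background. Without the peaks of high background the median fold was 4.76.

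Many of these summits were not far from every gene, since non-coding RNA genes lay beside them. An end of a lncRNA gene was within 2 kb of 109 of the 565 members (19.3%, 16.3 to 22.8), where 4.797% of the sequence at this distance lies that close, a ratio of 4.02. Within 500 bp there were 45 (7.97%, against 1.29% of sequence), and 167 (29.6%, against 13.0%) lay inside a lncRNA gene. Their fold was no higher: the 109 had a median of 4.58 (4.35 to 5.17) and the other members 4.79. The 5 strongest of the 109 were those beside Gm46131, Gm39623, Gm31889, Gm32575 and Gm36495, with folds of 18.7, 11.97, 10.69, 10.06 and 10.05. More than 2 kb from any annotated non-coding RNA gene or pseudogene lay 330 members (58.4%, 54.3 to 62.4), with a median fold of 4.75. This was below the 79.7% of the sequence at this distance that lies there, a ratio of 0.733. Pseudogenes within 500 bp were fewer than their sequence, 8 members (1.42%) against 3.15%, with a median fold of 2.76 over a median background of 18.4.

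Genes transcribed by RNA polymerase III accounted for a small and distinct set. Within 500 bp of a tRNA gene lay 11 members (1.95%, 1.09 to 3.45), where 0.0226% of the sequence lies, and all 11 summits were within the tRNA gene itself. Their median fold was 7.21 and 5 reached 8. A cluster of 5 lay within 3.67 kb near Hjv, the hemojuvelin gene, at chr3:96497694-96501599: folds were 11.2 at n-TEctc13, 9.71 at n-TNgtt12, 9.39 at n-TKctt16, 8.51 at n-TGtcc7 and 7.21 at n-THgtg8, each over a background of 4.32 to 5.18. The other 6 were at n-TLcaa2 near Zfp184 (8.63), n-TAcgc8 near Gm52512 (6.39), n-TAagc17 near Trim27 (5.38), n-TWcca5 near Slc47a1 (5.25), n-TAagc10 near Vmn1r223 (4.38) and n-TIaat10 near H4bc24 (4.07). Of the 103 tRNA genes 20 to 100 kb from protein-coding genes, 13 (12.6%, 7.53 to 20.4) had a summit within 500 bp, against 123 of the 300 other tRNA genes (41.0%, 35.6 to 46.7), and the intervals do not overlap.

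Ribosomal RNA genes between Gas8 and Rhou on chromosome 8 carried 11 members in a row over 57.7 kb. Each summit lay within such a gene, the first 9 of the following being named as 5S genes: n-R5s113, n-R5s118, n-R5s122, n-R5s128, n-R5s130, n-R5s134, n-R5s141, n-R5s142, n-R5s146, Gm26391 and Gm22291. Their folds ran from 3.23 at Gm22291 to 6.13 at Gm26391 with a median of 4.22, lower than at the tRNA genes, over backgrounds of 6.67 to 10.5. Of the 48 ribosomal RNA genes in this array, 11 had a summit (22.9%). The 5S copies are near identical, so their counts are uncertain: how reads that match several copies were placed is not stated. The last small RNA gene with a member was A430060F13Rik near Gm11544, of the miscellaneous class, with a fold of 4.55.

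Another peak lay within 10 kb of 199 members (34.4%, 30.7 to 38.4), against 30.0% (28.6 to 31.5) of all peaks, so the intervals overlap. The share was 41.7% (38.0 to 45.6) of peaks 2 to 20 kb from genes, 31.6% beyond 100 kb, 27.9% in genes and 22.2% at gene ends. Rows of 3 or more member summits, each within 20 kb of the next, numbered 29 and held 109 members. Apart from the 5S and Hjv rows and 7 peaks near Gm52481 at the end of chromosome Y (folds 2.34 to 3.08, backgrounds 10.7 to 34.2), the longest was between 4930432M17Rik and Slc44a3, with 8 members over 43.5 kb at chr3:121573882-121617576. Their folds ran from 2.94 to 8.61 over ordinary backgrounds of 3.32 to 6.58, and none lay at a small RNA gene. Rows of 4 lay downstream of Amotl2 (folds 3.07 to 8.34), by Irf2bpl and Lrrc74a (2.99 to 8.23) and downstream of Socs3 (3.07 to 7.02). Downstream of Amotl2 the peak at 30346 bp had 8.34 (6.46 to 10.6) and the others 3.07 to 4.70, the nearest of which, at 4.70 (3.08 to 6.90), overlapped it in interval. Downstream of Socs3 the peak at 33722 bp had 7.02 (5.37 to 9.02), and the others 3.07 to 4.18.

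The other rows had 3 members each. Those beside genes for transcription and signalling were at Dusp1, a MAP kinase phosphatase (3.08 to 9.22), Cebpb, a C/EBP factor (3.43 to 5.87), Lif, a cytokine of the interleukin 6 family (3.04 to 6.71), Irf2bp2, a corepressor (4.08 to 5.88), Socs5 (3.47 to 5.89), Med13l, a Mediator subunit (4.54 to 4.98), and Snai1 with Ube2v1 (2.63 to 4.60), Snai1 being a repressor of epithelial genes. Rows also lay at Jade2 and Cdkn2aipnl (3.40 to 10.02), Acot11 and Ssbp3 (5.15 to 10.01), Bloc1s4 (5.53 to 7.65), Tcte2 (1.97 to 7.36), Azin1, an antizyme inhibitor of polyamine metabolism (2.41 to 7.10), Col1a2, a chain of type I collagen (4.08 to 6.38), Abca1, the cholesterol efflux transporter (4.99 to 5.39), and Asap1 (3.51 to 5.23). The others were at Ampd3, 1700001O22Rik with Cstad, Mtap, Fam50b with Pxdc1, Tomm20 and Eps8l3, with folds from 2.87 to 6.01. The Azin1 row, on chromosome 15, had backgrounds of 16.4 to 19.5, whose part in its folds was not tested.

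By nearest gene, the 565 members belonged to 410 genes, of which 309 had 1 member, 67 had 2 and 34 had 3 or more. Irf2bp2 had the most that were not at small RNA genes, with 7: 5 upstream and 2 downstream, at 20355 to 90207 bp. Its folds were 3.67, 3.15, 4.08, 4.91 and 5.88 going upstream, and 3.68 and 7.90 going downstream, so the highest was the one 48377 bp downstream (interval 6.13 to 10.04), whose interval overlapped those of the peaks 72669 and 90207 bp upstream. Cebpb had 4, all downstream, at 4.45, 5.87, 5.68 and 3.43. Zfp36l2, which encodes an mRNA decay factor, had 4, from 34894 to 99975 bp away with folds of 4.40 to 5.34 that did not differ beyond their intervals. Nr2f2, the nuclear receptor COUP-TFII, had 3 on both sides (3.36 to 5.08), and Bcor, a corepressor gene on the X chromosome, had 3 downstream, the farthest with 9.39 (6.39 to 13.4). Phlda1, Slc38a6 (3.65 to 8.54), Rab11fip4 (3.08 to 7.34), Cdc42ep3 (4.50 to 6.96), Ywhaz (3.20 to 6.59), Lgalsl (3.35 to 4.81) and Sp3 (3.58 to 4.73) also had 3.

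**Figure D3:**
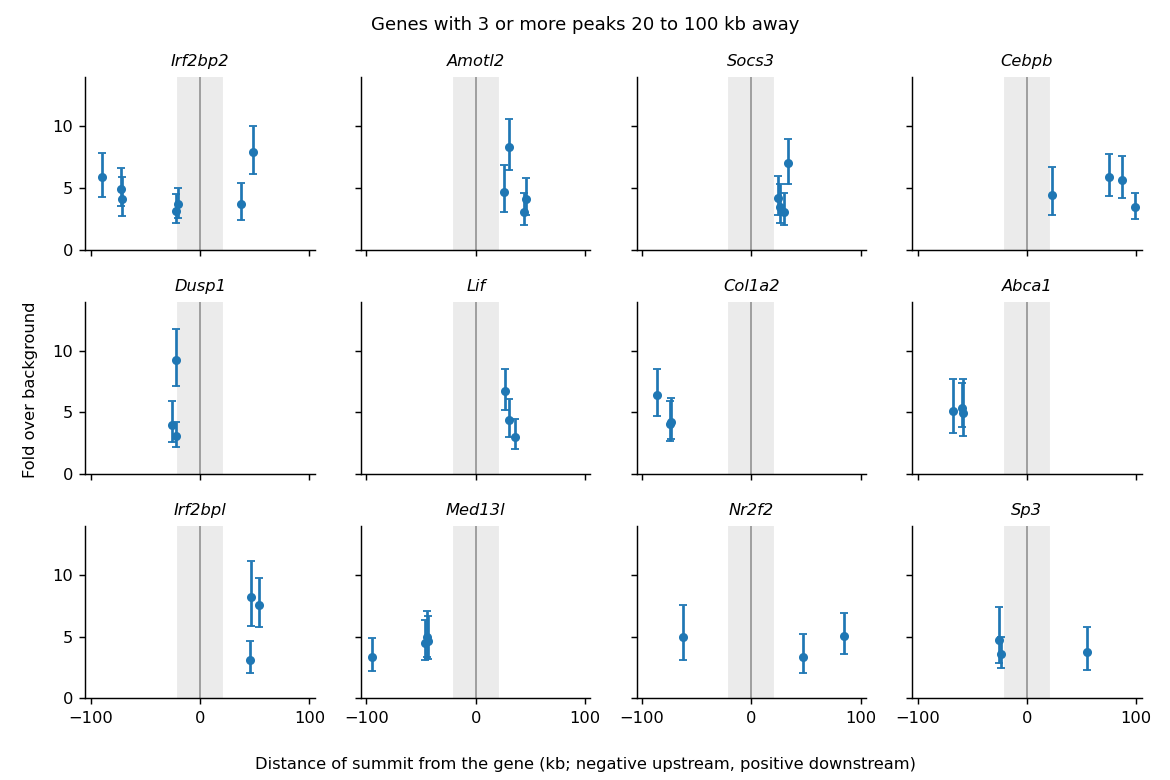
Fold over background (vertical axis) of each peak 20 to 100 kb from 12 genes that are nearest to 3 or more such peaks, against its distance from the gene (horizontal axis, kb; negative upstream, positive downstream); bars are exact 95% Poisson intervals of the ChIP fragments and the grey band is the 20 kb on either side that the rule leaves out. The peaks of Irf2bp2, Nr2f2 and Sp3 lie on both sides of the gene, and those of the other 9 on 1 side.

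Genes beside a distant peak had a peak at their own ends in a higher share than other genes. Of the 410 nearest genes, 59 (14.4%, 11.3 to 18.1) also had a summit within 2 kb of an end, against 329 (3.86%, 3.47 to 4.29) of the 8533 genes that own such sequence without a member in it, and 4.34% of all 8943. Among the 101 genes nearest to 2 or more members the share was 18.8% (12.4 to 27.5). Nearest genes own more such sequence (median 76.9 kb against 36.0 kb). Among genes with at least 50 kb of it, a comparison chosen after the data were seen, the shares were 13.5% (9.86 to 18.3; 34 of 251) and 3.37% (123 of 3645).

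Genes of the rapid response to serum and growth factors stood beside distant peaks in the highest share of the 17 lists: 11 of the 20 immediate early and AP-1 genes with sequence at this distance (55.0%, 34.2 to 74.2) were nearest to a member, against 4.58% of all 8943 such genes. Between them they had 18 members, 12.7 per Mb of that sequence against 1.21 over all, with a median fold of 4.68. The list was chosen knowing that its genes have KMT2D peaks at their ends, so its count is not independent evidence. All 17 lists were chosen with earlier results of these data known, so the same limit holds for the other lists below. Besides Ier5 and Phlda1, the highest were at Klf10, a TGF-β-inducible repressor (7.55 and 3.84), and Klf6 (5.76, 57686 bp upstream). Fos, a subunit of AP-1, had 5.16 (3.25 to 7.83) at 20426 bp downstream, Fosl2 3.12 downstream, and Jun 3.32 at 53380 bp upstream. Egr2 had 4.50 at 95181 bp upstream, Myc 4.48 at 89087 bp and Ier3, which acts on cell survival, 3.58. Zfp36l2 completes the 11. Of these, Klf10, Klf6, Zfp36l2, Fos, Jun and Fosl2 also had a peak at a gene end. That is 6 of the 11, beside 14.4% of the 410 genes nearest to a member. The list was chosen knowing of such peaks, so this share is not independent evidence either. The 3 members of Klf10 and Myc lie on chromosome 15 and had backgrounds of 11.2 to 13.5, above the median of 5.79.

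Matrix and mesenchymal genes followed with 8 of 30 (26.7%, 14.2 to 44.5) and 12 members. They were collagen genes, Col6a1 (8.51 at 39630 bp downstream), Col1a2 (6.38, 4.25 and 4.08, all upstream), Col5a1 (5.37) and Col4a1, the matrix glycoprotein genes Tnc (5.58 and 4.35, both upstream) and Thbs2, and Zeb1 (6.27) and Snai1, repressors active in epithelial to mesenchymal transition. None of the 8 had a peak at a gene end, beside 14.4% of the 410 genes nearest to a member. So few genes could not show a deficit. Growth factor receptors and feedback inhibitors had 6 of 29 (20.7%, 9.85 to 38.4) and 13 members. The feedback inhibitors were the MAP kinase phosphatases Dusp1 (9.22, 3.998 and 3.08) and Dusp6 (7.43), Socs3, which restrains JAK-STAT signalling (7.02 highest), and Errfi1, an inhibitor of the EGF receptor. The ligands were Lif (6.71 highest) and Nrg1, a neuregulin (5.08).

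Among YAP/TEAD targets, outputs of the Hippo pathway, 4 of 19 (21.1%, 8.51 to 43.3) were nearest to a member, with 9 members: Amotl2, Myof (6.95 at 77624 bp downstream), Asap1 and Ccn1 (2.57). Genes of SRF and actin had 3 of 14 (21.4%, 7.57 to 47.6), Tpm1, a tropomyosin (7.18), Fhl2 (6.88 and 3.48) and Actb (3.26). TGF-β and BMP signalling had 4 of 30 (13.3%, 5.31 to 29.7): the receptor Tgfbr2 (10.3, 7.29 to 14.1), the secreted BMP antagonist Nog (7.20), the target Tgfbi (5.91 and 5.31) and the inhibitor Smad6 (4.07 and 3.73). The lower bounds of these 3 lists lie above the 4.58% of all genes, which is a description and not independent evidence, given how the lists were chosen. Per Mb of their own sequence, YAP/TEAD targets had 9.77 peaks (4.47 to 18.6) and SRF genes 10.9 (2.96 to 27.8), while the TGF-β and BMP rate of 3.22 (1.18 to 7.01) had an interval that includes the 1.21 of all sequence. Intervals of the lists' rates per Mb treat each peak as independent. Several peaks shared a gene, with 4 at Amotl2, 3 at Asap1 and 2 at Fhl2, so these intervals may be too narrow.

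Nuclear receptors and coactivators had 3 of 22 (13.6%, 4.75 to 33.3), Nr2f2, Rxra with 5.56 and Ppara with 3.59, and 3.34 peaks per Mb (1.09 to 7.80), an interval that also includes 1.21. For the remaining lists the interval included the 4.58% of all genes. Wnt and Notch genes had 3 of 31 (Wnt4 with 5.58, Hes1 with 4.28, and Axin2, whose 1.54 rested on 241 fragments over a background of 156.5). The clock had 1 of 12 (Arntl, 5.21) and hypoxia and glycolysis 1 of 20 (Ndrg1, 3.93). With both flanking genes counted in place of the nearest, nuclear receptors had 6 of 22 (27.3%, 13.2 to 48.2), Wnt and Notch genes 6 of 31 (19.4%, 9.19 to 36.3) and hypoxia genes 5 of 20 (25%, 11.2 to 46.9). The share of all genes by that rule was 6.34%, so for Wnt and Notch and for hypoxia the interval then lay above the background, and their standing depends on how peaks are given to genes. Of neuron markers 1 of 30 (3.33%, 0.591 to 16.7) was nearest to a member, Syn2, which encodes synapsin II (6.55, 4.49 to 9.27), at 0.373 peaks per Mb. Progenitor markers had 2 of 21, Sox9 (6.92, 5.11 to 9.18) and Hes1. Astrocyte markers had Slc1a3, a glutamate transporter gene (5.66; 1 of 8), and endothelial markers Emcn (4.53; 1 of 10). Oligodendrocyte markers (0 of 7), microglia and macrophage markers (0 of 3) and KMT2 complex genes (0 of 6) had none, with upper bounds of 35.4%, 56.2% and 39.0%, so these short lists could not show a deficit.

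**Figure D4:**
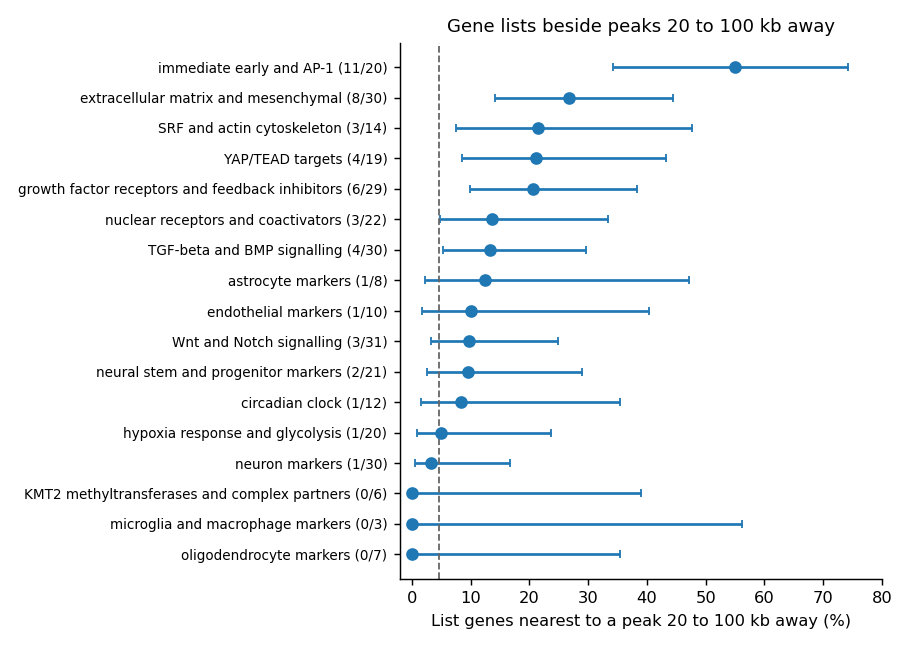
Share of the genes of each list that are nearest to a peak 20 to 100 kb away (horizontal axis, %), out of those with sequence at that distance (counts in brackets); bars are Wilson 95% intervals and the dashed line is the 4.58% of all such genes. The immediate early and AP-1 list lies highest at 55.0%, and neuron markers at 3.33% lie at the line.

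Members were spread unevenly over chromosomes. Per Mb of sequence at this distance there were 2.997 (exact Poisson interval 2.20 to 3.99) on chromosome 11, 2.89 on 15, 2.52 on 17 and 2.27 on 8, against 1.21 over all. Of the 45 members on chromosome 8, 11 lay in the ribosomal RNA array between Gas8 and Rhou, whose counts are uncertain. The rate of chromosome 8 without them was not computed. Chromosome 14 had 4 members (0.221, 0.0603 to 0.567), 18 had 6 (0.393) and X had 8 (0.192, 0.0831 to 0.379). Their intervals lie below 1.21, and the 9 members on Y all lay beyond its last protein-coding gene. Members were 12.8% of the 368 peaks on chromosome 11 and 15.4% of the 52 on X, against 15.4% over all. No interval was computed for these shares, and they take no account of each chromosome's sequence at this distance. Whether the rates are particular to the members was not tested. The share was 17.9% on chromosome 15, 18.6% on 17, 20.3% on 8 and 11.3% on 18. It ran from 4.12% on chromosome 14 (4 of 97) to 24.0% on 13. Median background at the members was 2.46 fragments on chromosome 18, 3.56 on X, 6.92 on 11 and 7.78 on 15. It was also 7.02 on chromosome 19, whose rate was 1.39, and 3.77 on 13, whose rate was 1.47, and its part in the rates was not tested. The ratio of peaks to sequence without chromosome 15 was 0.864.

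**Figure D5:**
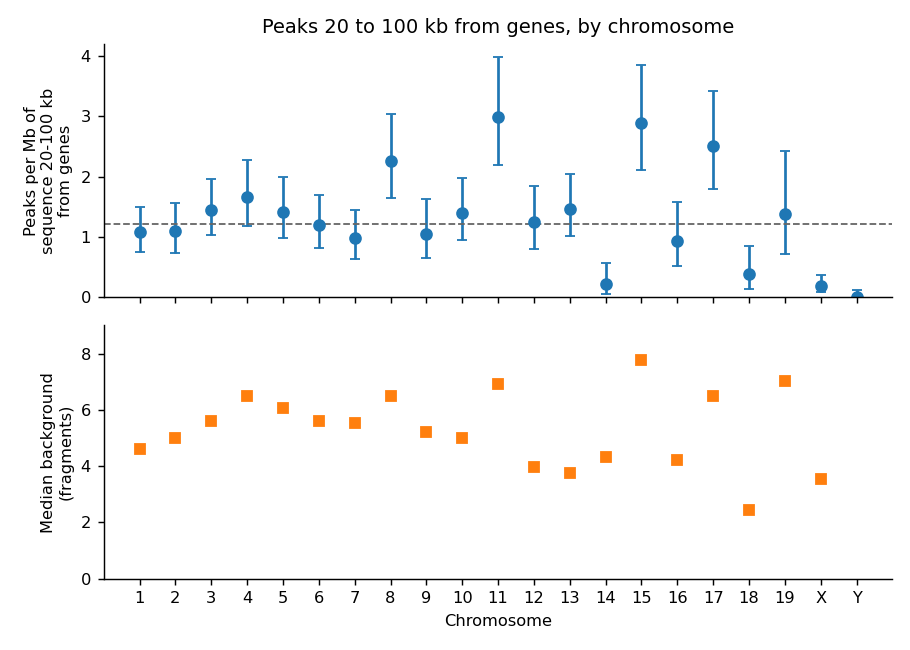
Peaks per Mb of sequence 20 to 100 kb from genes by chromosome (top, bars are exact 95% Poisson intervals, the dashed line is the 1.21 of all chromosomes), and median background in fragments at those peaks (bottom). Chromosomes 11, 15, 17 and 8 lie above the line with their intervals, and 14, 18, X and Y below it. The point of chromosome 8 includes the 11 members of the ribosomal RNA array between Gas8 and Rhou.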

How the data were processed

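The deposited data were 1 peak list made by the authors from the ChIP and input libraries. The submitters' processing notes name Bowtie2, Picard, MACS2 and mm10; versions and settings are not stated. For each peak the authors deposited its summit, a fold (ratio of ChIP over background there) and a p-value and q-value, each as −log10 (lowest −log10 q among members 1.32). From fold and p-value, taken as (n + 1)/(b + 1) and a Poisson tail, the fragments n and background b were solved within 0.001 of the deposited −log10 p, which gives the only depth known per peak. Library totals are not stated. Gene positions and promoter windows are RefSeq's for GRCm38.p6, with 21774 protein-coding genes on main chromosomes and strand for 17492. Sequence at each distance was measured exactly between the first and the last protein-coding gene of a chromosome, which leaves out 13 members. Shares have Wilson, medians exact order-statistic and fragment counts exact Poisson 95% intervals. The 17 gene lists (465 genes, 477 entries, all matched by symbol), the members and the rules were chosen with earlier results of these data known. Named peaks were the 15 of highest fold, the 3 widest, the lowest, rows of 3 or more summits within 20 kb of each other, those nearest the limits, the strongest at lncRNA genes, all at small RNA genes, up to 4 a list, and genes with 3 or more members. No genome was used here, so motifs were searched in promoter windows in place of all summits. The recovery of fragments and the sequence shares were tested on simulated data. Python 3.11.15, pandas 2.3.3, NumPy 2.4.6, SciPy 1.17.1 and matplotlib 3.10.9 were used.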

Additional observations from a re-analysis of the deposited data

How the results depend on the processing

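Of 26 alternative settings of the main results, 16 kept the value within its spread or within 1.5 times for counts, 10 moved it and 0 reversed it. With an outer limit of 50 kb there were 361 members. The share of peaks over the share of sequence rose from 0.878 to 0.9765 with −log10 q of at least 5 and to 0.9965 at or above the median fold, and the median fold rose to 5.106 with that q limit. A fold of at least 6 was reached by 25.09% of members (21.96% of all peaks) and of at least 10 by 2.941% (2.455%). An end of a lncRNA gene lay within 1 kb of 13.81% and within 5 kb of 33.45%. Another peak lay within 5 kb of 25.61% and within 20 kb of 45.16%. The 361, all among the 578, and the last 6 values follow from the settings themselves; the cause of the other moves was not tested. Leaving out X and Y, peaks near non-coding RNA genes (for the ratio) or at small RNA genes, and limiting genes to those with 50 kb of sequence, were added after seeing the data. The planned motif search of 100 and 500 bases round every summit was not run, as no genome was used here. No paired analysis was possible because there is 1 ChIP and 1 input library. Each value rests on a median of 31 fragments, so folds of single peaks that differ by less than their intervals could not be ordered.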
